A study of Mus musculus with 49 samples.

Results

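Unstimulated splenic CD8+ T cells of *Stat5b* KI mice (group STAT5B.0h.KI) were compared with those of *Stat5a* KI mice (group STAT5A.0h.KI) by RNA-seq. The comparison was set by the treatment group given for each library, and it takes 6 of the 48 RNA-seq libraries, 3 on each side. Unstimulated WT cells of each line (STAT5B.0h.WT and STAT5A.0h.WT, 3 libraries each) gave the background of differences between the lines. The other libraries, collected after 4, 24, or 48 hr with IL-2, were in none of the groups compared. They took part in the filter on low counts, the scaling between libraries, and the estimate of the spread of the counts.

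*Stat5a* KI mice were homozygous for an allele in which tyrosine 694 of STAT5A is replaced by phenylalanine (Y694F), and *Stat5b* KI mice for the allele with the same exchange at tyrosine 699 of STAT5B (Y699F). Both alleles were made with CRISPR/Cas9 in B6D2F1 zygotes and backcrossed to C57BL/6J, the strain given for all libraries. Each line was compared with WT littermates of its own, so *Stat5a* KI cells retained normal STAT5B, *Stat5b* KI cells retained normal STAT5A, and WT cells had both. The alleles are germline, so every cell of the mouse, and not only its CD8+ T cells, carried the mutation. The study used adult mice of both sexes, and the sex behind each library was not given in the sources used here. Cells were taken at 0 hr after isolation of CD8+ T cells from the spleen with a kit. How many mice went into a library was not given in the sources used here, so the p-values measure the spread between libraries, which may be in part technical.

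STAT5A and STAT5B are transcription factors encoded by neighboring genes. When IL-2, IL-7, or IL-15 binds its receptor, JAK1 and JAK3 phosphorylate a tyrosine near the C-terminal end of STAT5, which then forms dimers, enters the nucleus, and binds GAS motifs near its target genes. In CD8+ T cells, these cytokines maintain naive cells and memory-phenotype cells. Erythroid and myeloid cells also use STAT5, downstream of the receptors for erythropoietin, GM-CSF, and G-CSF.

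The edited sites are shown first, since they define the groups. Both genes lie on chromosome 11 (GRCm38), *Stat5b* at chr11:100780731-100859004 and *Stat5a* at chr11:100859351-100885169. The *Stat5a* guide matches chr11:100881731-100881750 (+ strand) in exon 18 of 20, and the *Stat5b* guide matches chr11:100784292-100784311 (− strand) in exon 17 of 19, each at 1 place on the chromosome. The 20 bases of the guides differ at 1 base, T17C, counted from 1 at the 5′ end with the *Stat5a* base first. In the guides below, capitals mark the PAM. In the reference and donor sequences, which cover chr11:100881728-100881770 for *Stat5a* and chr11:100784272-100784314 for *Stat5b*, capitals mark the 4 coding bases that the donor changes.
Stat5a guide: ccggcagcgaaagcagttgaCGG
Stat5a reference: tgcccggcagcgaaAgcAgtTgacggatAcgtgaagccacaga
Stat5a donor: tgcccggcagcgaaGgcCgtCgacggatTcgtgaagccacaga
Stat5b guide: ccggcagcgaaagcagctgaCGG
Stat5b reference: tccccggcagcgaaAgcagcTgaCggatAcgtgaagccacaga
Stat5b donor: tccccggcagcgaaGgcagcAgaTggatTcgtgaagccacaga

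Counted from the 5′ end of each donor, A63T changes the *Stat5a* codon from TAC to TTC (Y694F), and A68T makes the same codon change in *Stat5b* (Y699F). The other changes, A49G, A52C, and T55C in *Stat5a* and A54G, T60A, and C63T in *Stat5b*, leave the amino acid as it was. No read sequence was used here, so the counts cannot show which allele a library carries. The level of the mutated transcript did not mark the groups either. *Stat5a* was at 17.9, 20.6, and 21.5 RPKM (reads scaled to the transcript length and to the mapped reads of the library) in *Stat5a* KI cells and at 22.7, 21.4, and 21.2 RPKM in *Stat5b* KI cells (log2 fold change of 0.02 ± 0.07 (SE), adjusted p = 0.902). *Stat5b* was at 25.3, 25.2, and 27.7 RPKM in *Stat5a* KI cells and at 26.8, 27.2, and 27.0 RPKM in *Stat5b* KI cells (−0.05 ± 0.11, adjusted p = 0.834). Both transcripts were thus found at close levels in all 6 KI libraries. Positive log2 fold changes mean, here and below, a higher level in the *Stat5b* line.

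The reads on the longest transcript of each gene numbered 28446596 to 41750361 in the 6 KI libraries and 39116088 to 60202776 in the 6 WT libraries. Markers of the labelled cell type were high in every library. *Cd8a*, a chain of the CD8 co-receptor, was at 133.6, 127.04, and 135.1 RPKM in *Stat5a* KI cells and at 175, 170, and 173 RPKM in *Stat5b* KI cells. The level of *Cd8b1*, which encodes its partner chain, was 210 to 340 RPKM, and that of *Cd3e*, a chain of the T cell receptor complex, was 153.2 to 250.3 RPKM over the 12 libraries.

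Some libraries stood apart from their group. Principal components were computed from log2 CPM (counts scaled to the library size) of the 12 unstimulated libraries, and the first and second held 32.9% and 16.6% of the variance. The *Stat5b* KI libraries lay together (first component −50.2 to −42.6), and the *Stat5a* KI libraries were spread from −33.6 (replicate 1) to −5.39 and −1.17. The library labelled replicate 3 of *Stat5a* WT lay at 45.0 and −13.8, among the *Stat5b* WT libraries and away from the other *Stat5a* WT libraries, which were at 11.7 and 4.38 on the first component and at 31.1 and 29.8 on the second. Replicate 1 of *Stat5a* KI was lower in depth (28446596 reads) than the others and was nearer to the *Stat5b* KI libraries on the first component. For the gene lists below, counts of calls between KI cells that changed by more than 1.5 times without one of these libraries are given in both ways.

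**Figure D1:**
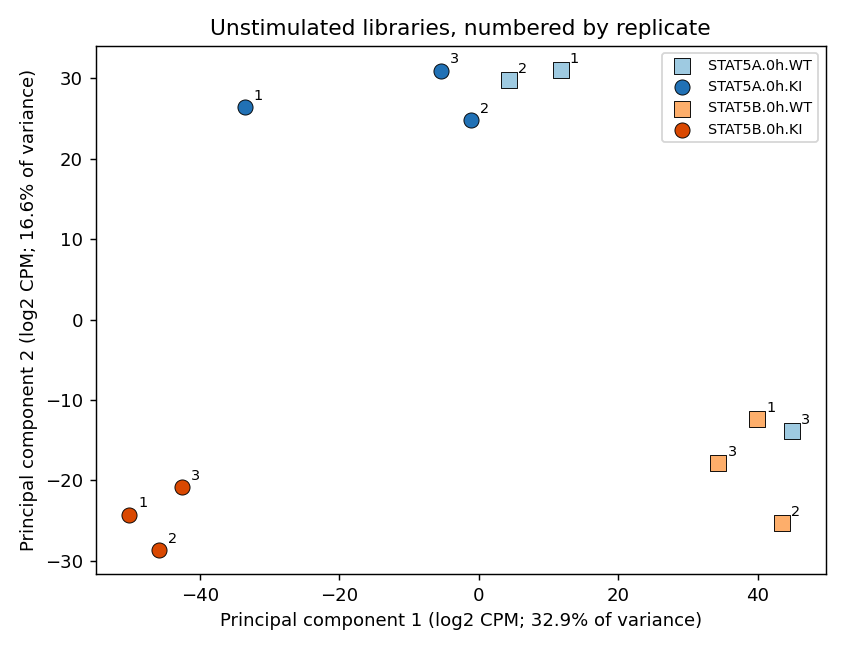
Principal components 1 and 2 of log2 CPM in the 12 unstimulated libraries, with axes in component units, color and shape for the group, and numbers for the replicate. The *Stat5b* KI libraries lie together at the lower left, and *Stat5a* WT replicate 3 lies among the *Stat5b* WT libraries at the lower right.

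The KI cells of the lines differed in 340 of 15562 genes tested (2.18%), with an adjusted p no higher than 0.05 and a difference of 2-fold or more. Of these, 281 genes were higher in *Stat5b* KI cells (1.81%) and 59 were lower (0.379%). These shares are the background for the counts of called genes in each list below. Most of the higher genes were weakly expressed: 222 had a mean level under 1 RPKM over the 12 unstimulated libraries, 59 had at least 1 RPKM, and 10 had at least 10 RPKM. Of the lower genes, 30 had at least 1 RPKM and 12 at least 10 RPKM. All 3 libraries of a side lay above all 3 of the other for 272 of the 281 higher genes and 58 of the 59 lower genes, while 16.7% of all genes tested were non-overlapping in each direction. The median log2 fold change over all genes tested was 0.02. With no fold threshold, 878 genes were higher (5.64%) and 916 lower (5.89%), so the excess of higher genes lay among the larger changes. Without *Stat5a* KI replicate 1, 479 genes were called, and without replicate 2 or 3 of that group, 189 and 179. Without *Stat5b* KI replicate 2, 213 were called. In all 6 fits that each left out 1 KI library, 102 genes remained called, 83 higher and 19 lower.

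The same comparison in WT cells called 51 genes (0.328%), 23 higher in the *Stat5b* line (0.148%) and 28 lower (0.180%). With no fold threshold, 193 were higher (1.24%) and 180 lower (1.16%), and the libraries did not overlap in 10.9% of all genes tested upward and 8.73% downward. The count depended on which library was left out: it was 242 without *Stat5a* WT replicate 3, 4 and 6 without replicate 1 or 2 of that group, and 9 and 19 without *Stat5b* WT replicate 2 or 3. Of the 281 genes higher in *Stat5b* KI cells, 181 also had a positive log2 fold change in WT cells and 7 were called there. Of the 59 lower genes, 45 had a negative one and 6 were called. Over all 15562 genes tested, the WT value was positive for 7791 and negative for 7768. Of the 59 higher genes with at least 1 RPKM, 50 had the same sign in WT cells. Of the 30 lower genes with at least 1 RPKM, 20 did. The KI and WT comparisons share no libraries. A direct test of the KI line difference against the WT line difference called 12 genes (0.0771%), 8 higher (0.0514%) and 4 lower (0.0257%), while it called 37 without *Stat5a* WT replicate 3, 105 without *Stat5a* KI replicate 1, and 6 without *Stat5a* KI replicate 3. With no fold threshold, that test called 8 genes above 0 and 16 below 0 (0.103%). For most genes below, a difference between KI cells was therefore not shown to exceed the difference between the lines in WT cells. A value marked WT beside a KI log2 fold change is the same difference between WT cells (± SE), with an adjusted p above 0.05 where none is given.

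**Figure D2:**
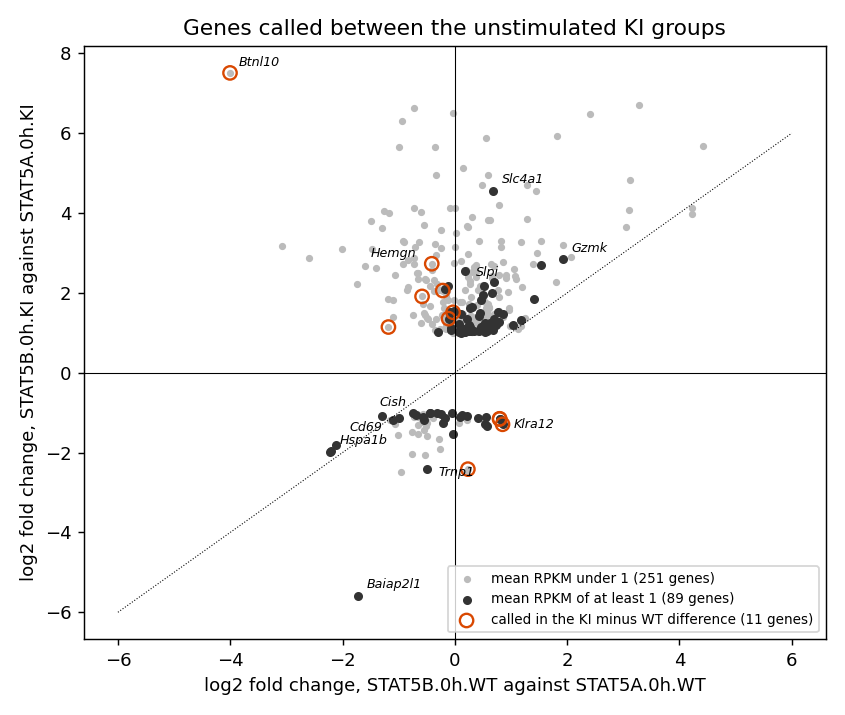
Log2 fold change of the *Stat5b* line against the *Stat5a* line in KI cells (y axis) and in WT cells (x axis) for the 340 genes called between KI cells, with weakly expressed genes in gray and the dotted line marking equal differences. Ringed genes were also called in the direct test of KI against WT differences. *Hspa1b* and *Cd69* lie near the dotted line, and *Klra12* lies on opposite sides of 0 in KI and WT cells.

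Several genes of memory-phenotype and cytotoxic CD8+ T cells were higher in *Stat5b* KI cells. Of 42 such genes tested, 4 were called higher and 0 lower, 12 were higher and 0 lower at an adjusted p of at most 0.05 alone, and the median log2 fold change was 0.45 (0.02 over all genes). In WT cells, 2 were called higher, 9 were higher and 0 lower at that adjusted p alone, and the median was 0.40. The median of the KI difference minus the WT difference was 0.03, with 22 genes above 0 and 20 below. Without *Stat5a* KI replicate 1, 7 of the 42 were called between KI cells, and without replicate 3 of that group, 2 were. *Gzmk*, a granzyme of memory-phenotype CD8+ T cells, was at 6.28, 3.23, and 1.69 RPKM in *Stat5a* KI cells and at 30.8, 29.4, and 24.6 RPKM in *Stat5b* KI cells. All *Stat5b* KI libraries were above all *Stat5a* KI libraries (2.84 ± 0.68, adjusted p = 0.00565), although the call was lost without *Stat5a* KI replicate 3. In WT cells, *Gzmk* was at 1.60, 0.827, and 7.38 RPKM in the *Stat5a* line and at 12.6, 20.6, and 6.26 RPKM in the *Stat5b* line, where the libraries overlapped (1.92 ± 0.66, adjusted p = 0.107). Without *Stat5a* WT replicate 3, it was called in WT cells also (3.37, adjusted p = 0.00623). *Eomes*, which encodes a T-box transcription factor of memory and effector CD8+ T cells, was at 13.2, 12.03, and 11.7 RPKM against 26.9, 37.7, and 25.3 RPKM (1.18 ± 0.19, adjusted p = 9.32e-05, WT 0.51 ± 0.18). *S100a6*, a calcium-binding protein gene raised in memory cells, was at 21.3, 16.8, and 15.7 RPKM against 44.3, 48.8, and 39.3 RPKM (1.20 ± 0.17, adjusted p = 2.17e-05, WT 0.73 ± 0.17 with adjusted p = 0.0147). *Eomes* and *S100a6* stayed called under every alternative. *Gzmb*, the granzyme B gene, was at 5.14, 5.25, and 2.44 RPKM against 10.4, 8.80, and 9.45 RPKM (1.05 ± 0.34, adjusted p = 0.0357, WT 0.43 ± 0.32), and its call was lost in 5 of the 6 fits that left out 1 KI library.

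Other genes of this group did not reach the call. *Ccl5*, a chemokine of memory-phenotype cells, was at 243, 176, and 144.9 RPKM in *Stat5a* KI cells and at 453, 374, and 368 RPKM in *Stat5b* KI cells, just short of 2-fold (0.98 ± 0.27, adjusted p = 0.0157). Its difference in WT cells was as large (1.19 ± 0.27, adjusted p = 0.0152). *Tbx21*, encoding T-bet, had a log2 fold change of 0.53 ± 0.16 in KI cells (adjusted p = 0.0231) and 0.86 ± 0.15 in WT cells (adjusted p = 0.00241). *Cd44*, the adhesion receptor by which memory-phenotype cells are sorted, was at 20.3 to 25.6 RPKM in *Stat5a* KI cells and 24.1 to 26.6 RPKM in *Stat5b* KI cells (0.12 ± 0.15, adjusted p = 0.675, WT 0.04 ± 0.15). *Prf1*, the perforin gene, was at 9.93 to 11.6 RPKM and 12.2 to 12.9 RPKM (0.11 ± 0.15, adjusted p = 0.712, WT 0.29 ± 0.15).

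Several genes of naive and quiescent T cells were lower in *Stat5b* KI cells, by less than 2-fold. None of the 20 tested was called, but 9 were lower and 0 higher at an adjusted p of at most 0.05, with a median of −0.34 (WT median −0.06, 1 called lower). *Klf2*, a transcription factor that keeps naive cells quiescent and in circulation, was at 409, 422, and 503 RPKM in *Stat5a* KI cells and at 273, 258, and 286 RPKM in *Stat5b* KI cells (−0.81 ± 0.14, adjusted p = 0.000354, WT −0.13 ± 0.14), with no overlap. *Tob1*, an inhibitor of T cell proliferation, was at 40.2, 45.9, and 40.3 RPKM against 23.6, 29.1, and 23.2 RPKM (−0.84 ± 0.12, adjusted p = 2.17e-05, WT −0.48 ± 0.12 with adjusted p = 0.0246). *Ccr7*, the lymph node homing receptor, was at 347 to 503 RPKM and 308 to 385 RPKM (−0.36 ± 0.15, adjusted p = 0.114, WT −0.30 ± 0.15).

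Chemokine receptor genes had differences in both directions. Of 15 chemokine and homing receptor genes, 2 were called higher and 0 lower (median 0.02, WT median 0.19). Without *Stat5a* KI replicate 3 or *Stat5b* KI replicate 2, 1 was called higher. *Ccr4*, a receptor for CCL17 and CCL22, was called (1.34 ± 0.37, adjusted p = 0.0144, WT −0.34 ± 0.37), at 0.439 to 0.580 RPKM in *Stat5a* KI cells and 1.05 to 1.89 RPKM in *Stat5b* KI cells. Its call was lost in each of these 2 fits. *Cxcr4*, the receptor for CXCL12, was lower by less than 2-fold, at 97.6, 111.01, and 129.3 RPKM against 71.1, 65.8, and 71.0 RPKM (−0.80 ± 0.14, adjusted p = 0.000353, WT −0.50 ± 0.14 with adjusted p = 0.048).

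Some co-inhibitory receptor genes were higher in *Stat5b* KI cells. Of 12 co-inhibitory and exhaustion genes, 4 were called higher and 0 lower, and the median was 0.59 (WT median 0.19, 0 called). *Lag3*, which binds MHC class II, was at 13.1, 6.62, and 6.99 RPKM in *Stat5a* KI cells and at 20.1, 23.6, and 19.0 RPKM in *Stat5b* KI cells (1.13 ± 0.25, adjusted p = 0.00285, WT 0.26 ± 0.25). *Stat5a* KI replicate 1 was the highest of its group, and the call was lost without replicate 2 or replicate 3. *Pdcd1*, encoding PD-1, was at 2.16, 1.05, and 1.13 RPKM against 3.55, 4.36, and 3.80 RPKM (1.36 ± 0.41, adjusted p = 0.0247, WT 0.70 ± 0.41). *Tigit*, a receptor for CD155, was at 14.98, 10.8, and 9.98 RPKM against 24.95, 28.7, and 23.3 RPKM (1.01 ± 0.21, adjusted p = 0.00218, WT 0.55 ± 0.21). *Tox2*, which encodes a transcription factor related to TOX, was at 0.863, 0.581, and 0.485 RPKM against 2.65, 4.10, and 2.50 RPKM (2.16 ± 0.48, adjusted p = 0.0036, WT 0.52 ± 0.50), and it alone of the 4 stayed called under every alternative. *Ctla4* was higher by less than 2-fold, at 35.4, 37.4, and 38.5 RPKM against 70.5, 60.4, and 83.8 RPKM (0.85 ± 0.16, adjusted p = 0.000819, WT 0.18 ± 0.16). Without *Stat5a* KI replicate 2 or 3, 1 of the 12 genes was called, and without *Stat5b* KI replicate 2, 2 were.

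Most of the listed cell cycle genes were higher in *Stat5b* KI cells, but few were called, and how many depended on the library left out. Of 25 cell cycle genes, 19 were higher and 0 lower at an adjusted p of at most 0.05, 4 were called, and the median was 0.84 (WT median 0.08, 1 called lower). *Ccnb1*, the cyclin that drives entry into mitosis, was at 3.44, 1.27, and 1.43 RPKM in *Stat5a* KI cells and at 4.23, 5.84, and 5.03 RPKM in *Stat5b* KI cells (1.23 ± 0.26, adjusted p = 0.00236, WT 0.08 ± 0.28). *Cdk1*, the kinase that cyclin B activates, had a log2 fold change of 1.11 ± 0.25 (adjusted p = 0.00413, WT 0.16 ± 0.26), *Tpx2*, a spindle assembly factor, 1.04 ± 0.24 (adjusted p = 0.00418, WT 0.08 ± 0.24), and *Aurkb*, the Aurora B kinase gene, 1.03 ± 0.25 (adjusted p = 0.00604, WT 0.24 ± 0.26). Replicate 1 of *Stat5a* KI was close to the *Stat5b* KI libraries for these genes. *Mki67*, the proliferation marker Ki-67, was at 13.3 RPKM in that library, at 6.27 and 5.88 RPKM in the other *Stat5a* KI libraries, and at 15.9, 17.2, and 15.5 RPKM in *Stat5b* KI cells (0.84 ± 0.23, adjusted p = 0.0135, WT 0.14 ± 0.23). In WT cells it was at 5.54 to 7.23 RPKM in all 6 libraries. The summed level of the cell cycle genes, of which *Pcna* was the most abundant, was 1318, 969, and 933 CPM in *Stat5a* KI cells and 1376, 1587, and 1470.2 CPM in *Stat5b* KI cells. Markers of plasma cells (291, 144.6, and 154.7 CPM against 257, 274, and 283 CPM) and of erythroid cells (352, 198, and 132.4 CPM against 900, 352, and 545 CPM) were also highest in replicate 1 among the *Stat5a* KI libraries. Their part in the cell cycle values was not tested. Without *Stat5a* KI replicate 1, 16 of the 25 genes were called, without *Stat5b* KI replicate 1, 8, without *Stat5a* KI replicate 2, 0, and without replicate 3 of that group or *Stat5b* KI replicate 2, 1.

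**Figure D3:**
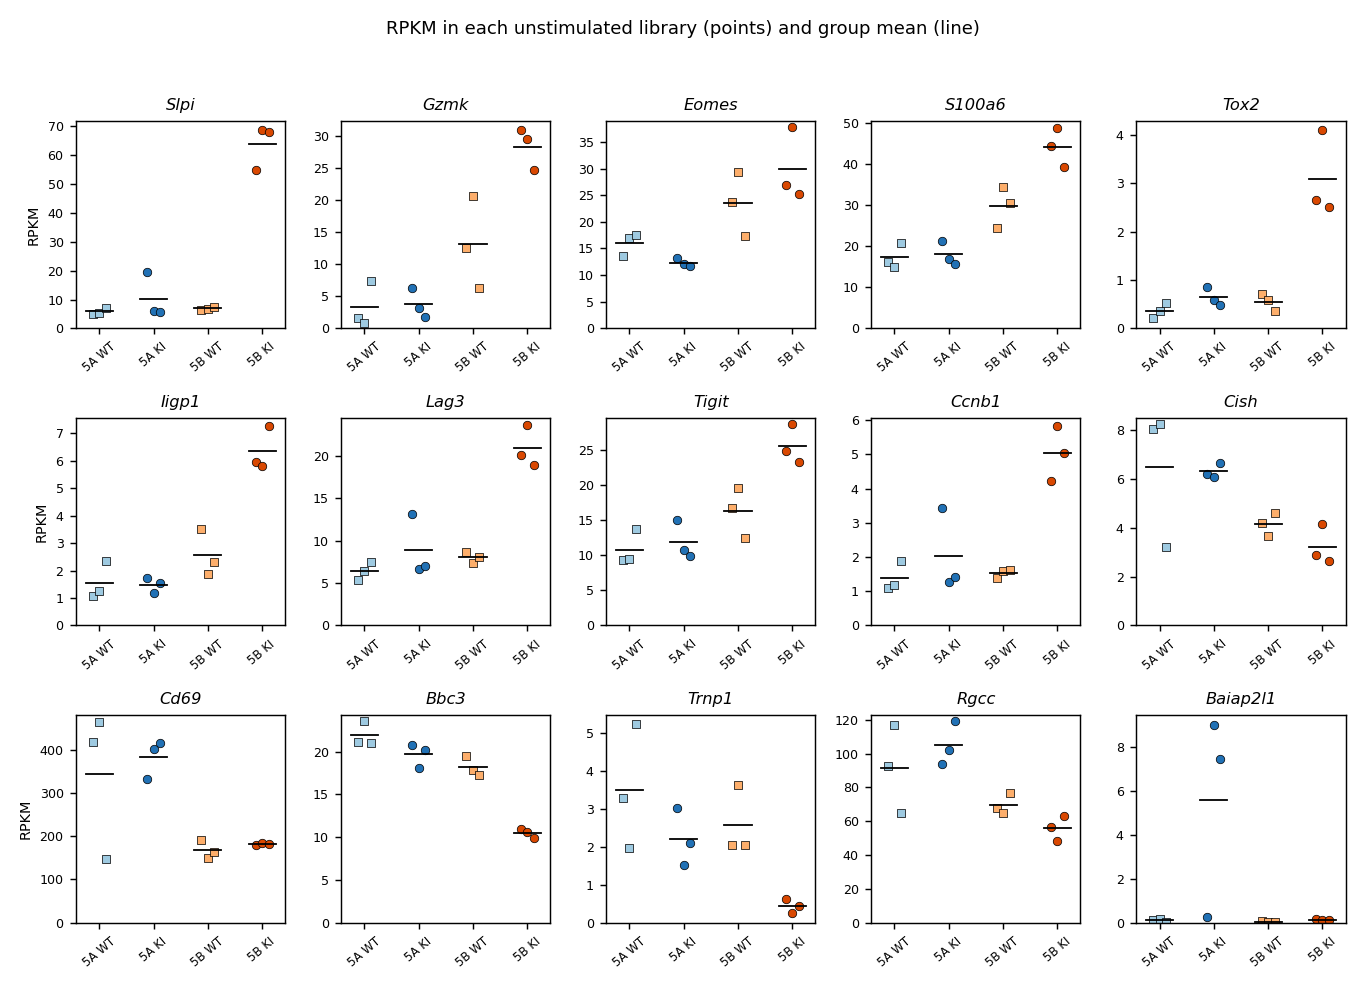
RPKM of 15 named genes in each of the 12 unstimulated libraries (points, left to right replicates 1 to 3), with the group mean as a line and a y axis from 0 for each gene. *Slpi* was at 55.1 to 68.8 RPKM in *Stat5b* KI cells and at most 19.4 RPKM in the other 9 libraries, and *Cd69* was low in both *Stat5b* groups and in *Stat5a* WT replicate 3.

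Among 19 STAT5 target and feedback genes, 1 was called higher between KI cells (*Gzmb*, above) and 1 lower (*Cish*), against 1.81% and 0.379% of all genes tested. Neither was called without *Stat5b* KI replicate 1 or replicate 3. At an adjusted p of at most 0.05 alone, 1 was higher and 3 were lower, and 14 had a negative log2 fold change, with a median of −0.09 (WT median −0.02). *Cish*, which encodes a feedback inhibitor of cytokine receptors and is a classical STAT5 target, was at 6.21, 6.08, and 6.67 RPKM in *Stat5a* KI cells and at 2.89, 4.18, and 2.63 RPKM in *Stat5b* KI cells (−1.07 ± 0.23, adjusted p = 0.0021). The libraries did not overlap, but the fold change was no longer called without *Stat5b* KI replicate 1 or replicate 3. In WT cells, *Cish* was at 8.04, 8.24, and 3.20 RPKM in the *Stat5a* line and at 4.21, 3.67, and 4.60 RPKM in the *Stat5b* line (−0.69 ± 0.22, adjusted p = 0.0774). Without *Stat5a* WT replicate 3, it was called lower in *Stat5b* WT cells (−1.04, adjusted p = 0.000258), and the direct test of KI against WT differences gave an adjusted p of 0.672. The start of *Cish* is shown because its GAS motifs are the kind of site STAT5 binds. Capitals mark matches to TTCNNNGAA, which reads the same on both strands, at chr9:107296654-107296683 (+ strand, RefSeq, GRCm38.p6).
Cish start: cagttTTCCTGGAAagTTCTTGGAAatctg

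At least 1 match lies within 250 bases before to 50 bases after the start in 8.3% of 32851 RefSeq promoters, and at least 2 matches in 0.457%. Most of the named genes with a promoter held no match, and 7 held at least 1. These include *Gzmb*, which was higher in *Stat5b* KI cells, and *Klra7*, which was lower. *Myc*, a growth regulator, was at 59.4, 54.6, and 46.8 RPKM in *Stat5a* KI cells and at 31.2, 35.7, and 25.2 RPKM in *Stat5b* KI cells (−0.91 ± 0.18, adjusted p = 0.00118), lower by less than 2-fold, with a like difference in WT cells (−0.98 ± 0.18, adjusted p = 0.00355). *Socs2*, another feedback inhibitor, was at 1.24 to 2.46 RPKM and 2.26 to 2.82 RPKM (0.44 ± 0.22, adjusted p = 0.205, WT 0.17 ± 0.23). None of the 7 STAT genes was called (median 0.05, WT median 0.08). Among 12 genes of the common gamma chain receptors and JAKs, 0 were called (median 0.04, WT median 0.13). *Il2rb*, the receptor chain shared by IL-2 and IL-15, was at 87.8 to 93.7 RPKM and 86.2 to 99.6 RPKM (−0.08 ± 0.15, adjusted p = 0.794, WT 0.36 ± 0.15), *Il7r* at 50.9 to 60.3 RPKM and 39.7 to 55.9 RPKM (−0.34 ± 0.18, adjusted p = 0.225, WT −0.06 ± 0.18), and *Il2ra*, the high-affinity IL-2 receptor chain, at 2.34 to 3.33 RPKM and 2.85 to 4.08 RPKM (0.33 ± 0.38, adjusted p = 0.644, WT −0.67 ± 0.38). *Jak3* was higher by less than 2-fold in KI cells (0.45 ± 0.13, adjusted p = 0.0204) and in WT cells (0.61 ± 0.13, adjusted p = 0.00947).

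*Cd69* and some heat shock genes were lower in the *Stat5b* line, in KI and in WT cells. Of 35 immediate early and stress genes, 3 were called lower (*Cd69*, *Hspa1b*, and *Hspa1a*) and 0 higher between KI cells, with a median of −0.33. At an adjusted p of at most 0.05 alone, 12 were lower and 1 was higher. Between WT cells, 4 were called lower, with a median of −0.23. *Cd69*, an activation marker that retains T cells in tissue, was at 333, 401, and 415 RPKM in *Stat5a* KI cells and at 178, 185, and 182 RPKM in *Stat5b* KI cells (−1.18 ± 0.22, adjusted p = 0.00063). In WT cells, it was at 419, 465, and 147.8 RPKM in the *Stat5a* line and at 190, 148.99, and 163 RPKM in the *Stat5b* line (−1.10 ± 0.22, adjusted p = 0.00619). *Stat5a* WT replicate 3 was thus at the *Stat5b* level, and the WT value was −1.47 (adjusted p = 7.88e-08) without it. *Hspa1b*, an inducible HSP70 gene, was at 31.7, 41.7, and 30.4 RPKM in *Stat5a* KI cells and at 5.73, 16.8, and 6.37 RPKM in *Stat5b* KI cells (−1.96 ± 0.38, adjusted p = 0.000872), and its WT difference was as large (−2.21 ± 0.38, adjusted p = 0.00222). Its near-identical neighbor *Hspa1a* had −1.81 ± 0.39 (adjusted p = 0.00239, WT −2.12 ± 0.39 with adjusted p = 0.00384). The authors kept only uniquely mapped reads, so reads that match both copies alike were left out. The level of each copy rests on the remaining reads, and the split between them is uncertain.

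Of 67 heat shock and DnaJ genes, which encode protein-folding chaperones, 6 were called lower and 0 higher between KI cells. These 6 include *Hspa1a* and *Hspa1b*, which were also counted in the list above. At an adjusted p of at most 0.05, 13 were lower and 0 higher, with a median over the 67 of −0.09. In WT cells, 4 were called lower, and 11 were lower and 0 higher at that adjusted p, with a median of −0.10. *Hsph1*, the HSP110 gene, was at 49.96, 71.2, and 76.4 RPKM against 27.8, 33.6, and 35.8 RPKM (−1.13 ± 0.17, adjusted p = 4.16e-05, WT −0.99 ± 0.17 with adjusted p = 0.00222). *Hspa2* had −1.08 ± 0.20 (adjusted p = 0.000732, WT −1.29 ± 0.20 with adjusted p = 0.00124), and *Dnajb4*, a co-chaperone gene, −1.01 ± 0.13 (adjusted p = 8.11e-06, WT −0.74 ± 0.13 with adjusted p = 0.00222). The call of *Dnajb4* was lost in 4 of the 6 fits that left out 1 KI library, and that of *Hspa2* without *Stat5b* KI replicate 3. With limma, 3 of 58 tested were called, and the median was 0.02. *Hspa8*, the constitutive HSP70 gene, was lower by much less (−0.28 ± 0.08, adjusted p = 0.027, WT −0.20 ± 0.08). A piece of the *Hspa1a* promoter is shown for the heat shock element, the motif bound by HSF1, with GAANNTTC (the same on both strands) in capitals, at chr17:34972228-34972285 (− strand, RefSeq, GRCm38.p6). The motif is in 7.86% of the RefSeq promoters searched. Of the 6 called genes, *Hspa1a*, *Hspa1b*, and *Hsph1* held it, while *Hspa2*, *Dnajb4*, and *Hspa1l* did not. It was also found at *S100a6* and *Hemgn*, which were higher in *Stat5b* KI cells. Its part in the lower levels was not tested.
Hspa1a promoter: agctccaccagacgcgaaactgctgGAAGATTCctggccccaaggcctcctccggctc

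Several Klra (Ly49) genes were lower in *Stat5b* KI cells. Most WT differences between the lines, none of them called when all WT libraries were used, were in the other direction. Klra genes encode MHC class I receptors of NK cells and of some memory-phenotype CD8+ T cells. Of the 21 tested, 13 were placed in a cluster at chr6:129831154-131247716. *Klra13-ps* is among these 13, while *Klra12* and *Klra23* were not placed there. Between KI cells, 8 of the 21 were called lower and 0 higher, 19 had a negative log2 fold change, and the median was −0.89. Between WT cells, 0 were called, 14 had a positive one, and the median was 0.41. *Klra12* was at 5.41, 4.33, and 4.04 RPKM in *Stat5a* KI cells and at 1.84, 2.70, and 1.49 RPKM in *Stat5b* KI cells (−1.29 ± 0.27, adjusted p = 0.00178). In WT cells, it was at 7.29, 8.68, and 12.1 RPKM in the *Stat5a* line and at 17.9, 18.7, and 15.7 RPKM in the *Stat5b* line (0.85 ± 0.24, adjusted p = 0.048). *Stat5b* KI cells thus had the lowest level of the 4 groups and *Stat5b* WT cells the highest, with no overlap between any of the groups. The direct test of KI against WT differences gave −2.14 (adjusted p = 0.00472), and −2.35 (adjusted p = 0.00255) without *Stat5a* WT replicate 3. *Klra23* and *Klra13-ps* were called in that test too, with −1.96 and −1.95, and the other 18 of the 21 were not. Klra genes are close copies of each other, and some pairs had nearly the same reads in every library, as did *Klra23* (264, 315, and 235 reads in *Stat5a* KI cells) and *Klra13-ps* (259, 301, and 227 reads). The same reads may thus have been counted for more than one member, so the members and their calls are not independent. Between KI cells, 4 of the 21 were called without *Stat5a* KI replicate 2, 4 with all 48 libraries, and 0 of 16 with limma on log2(RPKM + 1), where the median was −0.38. The summed level, which may count a read more than once, was 57.9, 56.9, and 53.6 CPM in *Stat5a* KI cells, 30.9, 35.3, and 28.5 CPM in *Stat5b* KI cells, 85.8, 105, and 115.5 CPM in *Stat5a* WT cells, and 152.7, 171, and 132.9 CPM in *Stat5b* WT cells.

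Of 11 NK cell markers, 2 were called lower between KI cells, *Klra4* and *Klrb1c* (median −0.23, WT median 0.15, 0 called). The call of *Klra4* was lost in 4 of the 6 fits that left out 1 KI library, and that of *Klrb1c* without *Stat5a* KI replicate 3. *Klrb1c*, which encodes NK1.1, was at 1.15, 1.09, and 1.36 RPKM in *Stat5a* KI cells and at 0.610, 0.665, and 0.561 RPKM in *Stat5b* KI cells (−1.07 ± 0.23, adjusted p = 0.00236, WT 0.22 ± 0.21). The summed level of the NK cell markers, of which *Cd7* was the most abundant, was 210, 202, and 198 CPM in *Stat5a* KI cells and 246, 214, and 183 CPM in *Stat5b* KI cells, which overlapped. In bulk RNA, fewer cells of a type and less RNA per cell cannot be told apart.

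**Figure D4:**
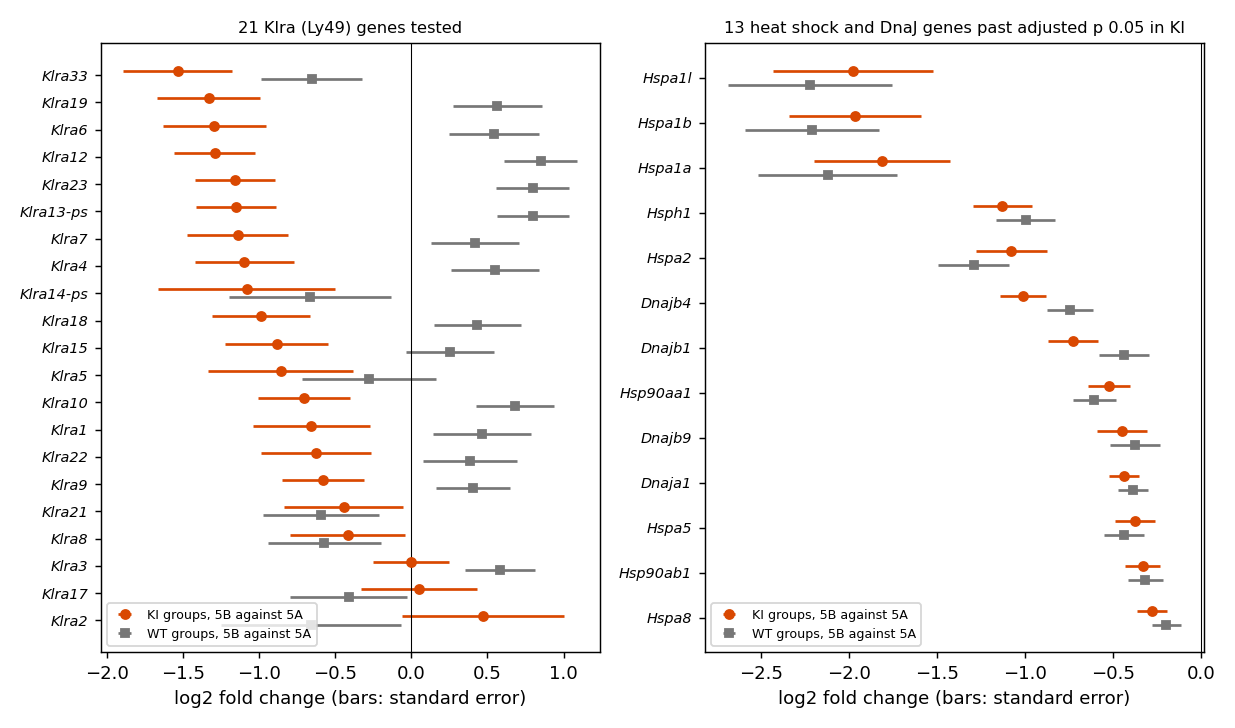
Log2 fold change (± SE) of the *Stat5b* line against the *Stat5a* line in KI cells (circles) and WT cells (squares) for the 21 Klra genes tested and for the 13 heat shock and DnaJ genes with an adjusted p of at most 0.05 in KI cells. For 19 Klra genes the KI value is below 0, while 14 have a WT value above 0, and all 13 chaperone genes are below 0 in both.

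Among the genes with the largest rises, *Slpi* was the most abundant. *Slpi*, encoding a secreted inhibitor of leukocyte proteases, was at 19.4, 5.91, and 5.52 RPKM in *Stat5a* KI cells and at 55.1, 68.8, and 68.0 RPKM in *Stat5b* KI cells (2.56 ± 0.45, adjusted p = 0.000313). It was at 5.01 to 7.42 RPKM in all 6 WT libraries (0.17 ± 0.44, adjusted p = 0.889), while the direct test of KI against WT differences gave 2.38 (adjusted p = 0.0879). *Penk*, the proenkephalin gene, was at 1.44, 0.794, and 0.748 RPKM against 5.46, 4.27, and 4.46 RPKM (2.17 ± 0.41, adjusted p = 0.00086, WT −0.12 ± 0.42). *Pcsk1*, encoding a prohormone convertase that cleaves such precursors, was at 0.341, 0.845, and 0.727 RPKM against 3.77, 2.65, and 3.61 RPKM (2.26 ± 0.30, adjusted p = 1.47e-05, WT 0.70 ± 0.30). *Esm1*, a secreted proteoglycan gene, was at 0.652, 0.455, and 0.145 RPKM against 3.31, 2.53, and 2.78 RPKM (2.69 ± 0.63, adjusted p = 0.00507, WT 1.54 ± 0.64), with a call that was lost without *Stat5a* KI replicate 3. *Smpdl3b*, a membrane phosphodiesterase gene, rose by 1.84 ± 0.44 (adjusted p = 0.00588, WT 1.42 ± 0.43). *Slpi*, *Penk*, *Pcsk1*, and *Smpdl3b* stayed called under every alternative.

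*Nrn1*, encoding neuritin, was at 2.39, 1.48, and 1.34 RPKM in *Stat5a* KI cells and at 4.65, 4.48, and 5.04 RPKM in *Stat5b* KI cells (1.35 ± 0.19, adjusted p = 2.17e-05, WT −0.11 ± 0.19). It was at 1.36 to 1.91 RPKM in all 6 WT libraries, and its KI difference exceeded the WT difference (1.47, adjusted p = 0.00472). Of 29 interferon-stimulated genes, 1 was called higher and 0 lower, against 1.81% and 0.379% of all genes tested (median 0.09, WT median −0.06). That gene, *Iigp1*, an interferon-inducible GTPase gene, was at 1.71, 1.19, and 1.56 RPKM against 5.97, 5.82, and 7.25 RPKM (2.01 ± 0.43, adjusted p = 0.00262, WT 0.66 ± 0.43). *Igtp*, a gene of a related family, was higher by less than 2-fold (0.79 ± 0.18, adjusted p = 0.00408, WT 0.16 ± 0.18). Of 15 genes of cholesterol and lipid synthesis, 0 were called (median 0.08, WT median −0.03, 1 called lower).

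The largest fall, that of *Baiap2l1*, came from only some of the libraries. *Baiap2l1*, which encodes an adaptor of the actin cytoskeleton, was at 0.271, 9.04, and 7.49 RPKM in *Stat5a* KI cells, at 0.146, 0.117, and 0.115 RPKM in *Stat5b* KI cells, and at 0.0113 to 0.171 RPKM in the 6 WT libraries (−5.58 ± 1.37, adjusted p = 0.00672, WT −1.73 ± 2.05). It was high in replicates 2 and 3 of *Stat5a* KI and in no other library. *Trnp1*, encoding a nuclear protein, was at 3.02, 1.51, and 2.1003 RPKM in *Stat5a* KI cells, at 0.628, 0.253, and 0.440 RPKM in *Stat5b* KI cells, and at 1.97 to 5.22 RPKM in WT cells (−2.41 ± 0.43, adjusted p = 0.000408, WT −0.49 ± 0.38), so that the *Stat5b* KI libraries were the lowest of all 12. *Acoxl*, an acyl-CoA oxidase-like gene, was at 0.882, 0.997, and 1.00 RPKM against 0.446, 0.406, and 0.447 RPKM (−1.25 ± 0.23, adjusted p = 0.000568, WT −0.22 ± 0.21), and at 1.17 to 1.99 RPKM in WT cells. *Rab4a*, a gene of endosome recycling, was called (−1.54 ± 0.44, adjusted p = 0.0204, WT −0.04 ± 0.43), but with 5.54 RPKM in *Stat5a* KI replicate 2 against 1.72 and 2.22 RPKM in the others, and the call was lost in 4 of the 6 fits that left out 1 KI library.

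Of abundant genes outside these groups, chosen after their values were seen, *Bbc3*, which encodes the pro-apoptotic protein PUMA, was at 20.8, 18.1, and 20.3 RPKM in *Stat5a* KI cells and at 10.95, 10.6, and 9.86 RPKM in *Stat5b* KI cells (−1.01 ± 0.21, adjusted p = 0.00159, WT −0.32 ± 0.20). *Rgcc*, a regulator of the cell cycle, was at 93.8, 102, and 119.5 RPKM against 56.6, 48.1, and 63.1 RPKM (−1.01 ± 0.18, adjusted p = 0.000353, WT −0.45 ± 0.18). *Atn1*, a transcriptional corepressor gene, was at 24.1, 24.2, and 26.6 RPKM against 11.4, 16.6, and 10.9 RPKM (−1.05 ± 0.20, adjusted p = 0.00105, WT 0.13 ± 0.20). These fell by close to 2-fold, so that the calls were lost in 3, 2, and 3 of the 6 fits that left out 1 KI library.

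Some erythroid genes were higher in *Stat5b* KI cells. Of 11 erythroid markers tested, 5 were called higher and 0 lower (median 1.44), and 0 were called in WT cells, where the median was −1.09. *Slc4a1*, the band 3 anion exchanger of red cells, was at 0.700, 0.0181, and 0.0402 RPKM in *Stat5a* KI cells and at 9.66, 2.89, and 5.33 RPKM in *Stat5b* KI cells (4.56 ± 0.84, adjusted p = 0.000603, WT 0.69 ± 0.86). *Klf1*, the erythroid Krüppel-like factor gene, rose by 3.31 ± 0.72 (adjusted p = 0.00272, WT 0.82 ± 0.79) and *Epor*, the erythropoietin receptor gene, by 1.38 ± 0.41 (adjusted p = 0.0245, WT −1.09 ± 0.49), the latter with a call lost in 4 of the 6 fits that left out 1 KI library. *Car2*, a carbonic anhydrase gene, was at 3.89, 3.62, and 4.27 RPKM against 15.8, 8.56, and 11.6 RPKM (1.51 ± 0.19, adjusted p = 4.96e-06), and at 2.47 to 3.15 RPKM in all 6 WT libraries, so that its KI difference exceeded the WT difference (1.55, adjusted p = 0.00472). *Hbb-bs*, a beta globin gene and the most abundant of the list, was at 106.6, 58.5, and 40.1 RPKM in *Stat5a* KI cells, 262, 110, and 160 RPKM in *Stat5b* KI cells, 96.5, 49.8, and 17.5 RPKM in *Stat5a* WT cells, and 9.81, 15.01, and 30.0 RPKM in *Stat5b* WT cells, with an adjusted p of 0.0919 between KI cells.

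The summed level of the erythroid markers was 352, 198, and 132.4 CPM in *Stat5a* KI cells and 900, 352, and 545 CPM in *Stat5b* KI cells, where the lowest *Stat5b* KI library and the highest *Stat5a* KI library were level. Replicate 1 was the highest of each KI group. Without *Stat5a* KI replicate 1, 10 of the 11 markers were called. How much of these transcripts came from erythroid cells in the preparation, and how much from CD8+ T cells, was not tested.

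Most neutrophil markers were also higher in *Stat5b* KI cells. Of 11 neutrophil markers, 7 were called higher and 0 lower (median 1.51, WT median 0.38, 0 called). *S100a8* and *S100a9*, which encode the subunits of calprotectin, were at 4.20 to 5.00 RPKM and 6.45 to 8.46 RPKM in *Stat5a* KI cells and at 15.7 to 20.8 RPKM and 20.8 to 33.5 RPKM in *Stat5b* KI cells (1.95 ± 0.51, adjusted p = 0.0107, WT 0.51 ± 0.50, and 1.81 ± 0.43, adjusted p = 0.00585, WT 0.46 ± 0.43). *Csf3r*, the G-CSF receptor gene, was at 0.806, 1.09, and 1.37 RPKM against 2.43, 3.78, and 3.25 RPKM (1.42 ± 0.32, adjusted p = 0.00408, WT 0.44 ± 0.32). *Ltf*, the lactoferrin gene, was at 0.0179 to 0.0667 RPKM against 0.359 to 0.527 RPKM (3.30 ± 0.78, adjusted p = 0.00508, WT 0.43 ± 0.71), and *Mmp9*, a gelatinase gene, rose by 1.32 ± 0.39 (adjusted p = 0.0219, WT 0.18 ± 0.39). In fits that left out 1 library, 4 of the 11 were called without any one of the *Stat5a* KI libraries or without *Stat5b* KI replicate 2, and with all 48 libraries, 1 was. The call of *Mmp9* was lost in 4 of the 6 fits that left out 1 KI library, and that of *S100a8* without *Stat5a* KI replicate 3. The summed level of the list, of which *Cxcr2* was the most abundant gene, was 22.5, 30.6, and 29.3 CPM in *Stat5a* KI cells, 61.4, 83.4, and 74.5 CPM in *Stat5b* KI cells, and 17.1 to 39.3 CPM in the WT libraries. All *Stat5b* KI libraries were thus above the other 9. The part of neutrophils in the preparation in these values was not tested.

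**Figure D5:**
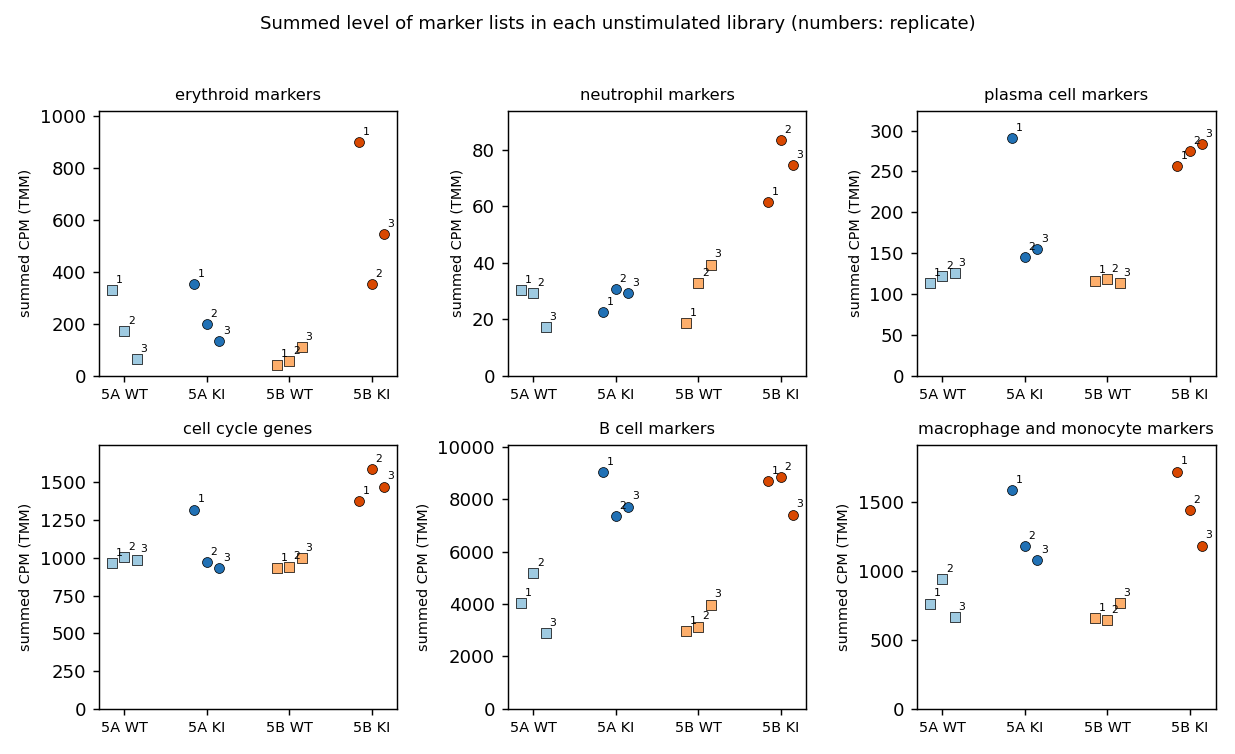
Summed TMM-scaled CPM of 6 gene lists in each of the 12 unstimulated libraries, with numbers for the replicate and y axes from 0. Neutrophil markers separate *Stat5b* KI libraries (61.4 to 83.4 CPM) from the others, erythroid markers span 132.4 to 900 CPM over the KI libraries, B cell markers separate KI from WT libraries, and *Stat5a* KI replicate 1 lies with the *Stat5b* KI libraries for plasma cell and cell cycle genes.

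Markers of other cell types were also found in the KI libraries of both lines, and the cells they came from were not tested. B cell markers summed to 9031, 7347, and 7719 CPM in *Stat5a* KI cells, 8692, 8850, and 7411 CPM in *Stat5b* KI cells, 4034, 5189, and 2880 CPM in *Stat5a* WT cells, and 2979, 3135, and 3977 CPM in *Stat5b* WT cells. Of the 16 tested, 0 were called between KI cells (median −0.27), whereas the WT median was −1.01 with 1 called lower. *Cd79a*, which encodes a signaling chain of the B cell receptor, was at 120, 98.9, and 113.98 RPKM in *Stat5a* KI cells and at 84.8, 83.0, and 80.9 RPKM in *Stat5b* KI cells (−0.52 ± 0.36, adjusted p = 0.381, WT −1.27 ± 0.37), and *Cd74* was the most abundant gene of the list. Of 22 macrophage and monocyte markers, 1 was called higher, against 1.81% of all genes tested. It was *Timd4*, a phagocytic receptor of resident macrophages, at 1.10, 0.780, and 0.495 RPKM against 3.04, 2.52, and 1.57 RPKM (1.48 ± 0.41, adjusted p = 0.0155, WT −0.55 ± 0.44). The call of *Timd4* was lost in 3 of the 6 fits that left out 1 KI library. The list summed to 1588, 1181, and 1081 CPM in *Stat5a* KI cells and to 1723, 1445, and 1185 CPM in *Stat5b* KI cells (median 0.16, WT median −0.51), and the median was 0.52 without *Stat5a* KI replicate 1 and 0.03 without replicate 3 of that group. Plasma cell markers summed to 291, 144.6, and 154.7 CPM in *Stat5a* KI cells and to 257, 274, and 283 CPM in *Stat5b* KI cells, with 0 of 5 called and 3 of 5 called without *Stat5a* KI replicate 1, the library with the highest value.

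No gene was called between KI cells among 22 T cell identity genes (median 0.02, WT median 0.15), 9 dendritic cell markers (0.27, WT 0.08), 7 CD4 and regulatory T cell markers (0.11, WT −0.18), 7 platelet and megakaryocyte markers (−0.58, WT −0.16), 6 mast cell and basophil markers (−0.22, WT −0.96), and 12 stromal and endothelial markers (−0.18, WT −0.78). *Cd4* was at 17.1 to 19.5 RPKM in *Stat5a* KI cells and at 13.9 to 19.3 RPKM in *Stat5b* KI cells (−0.22 ± 0.25, adjusted p = 0.642, WT −0.66 ± 0.26). *Xist*, transcribed from the inactive X chromosome of females, was the only one of 5 sex-linked genes that passed the filter on low counts, which the other 4, all Y-linked, did not. It was at 29.3 to 31.8 RPKM and 34.4 to 39.6 RPKM (0.15 ± 0.14, adjusted p = 0.522, WT 0.00 ± 0.14). In WT cells, it was at 31.2 to 36.7 RPKM and 33.7 to 34.7 RPKM. Around the edited genes, 42 genes within 500 kb were tested and 2 were called, *Fkbp10* (1.89 ± 0.64, adjusted p = 0.0475) and *Cntd1* (2.40 ± 0.72, adjusted p = 0.025), both weakly expressed (means of 0.0889 and 0.0717 RPKM over the 12 libraries). On chromosome 11 as a whole, 31 of 1273 genes were called (2.44%), against 2.18% of all genes tested.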

How the data were processed

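RNA-seq of 48 libraries was used, 12 of them unstimulated. Single-end reads of 50 bp were aligned by the authors with TopHat2 2.0.11 (build mm10, GRCm38). They kept uniquely mapped reads, and deposited, for each of 31682 RefSeq transcripts, a raw read count and an RPKM, which they made from the count, the transcript length, and the mapped reads of the library. The counting program and the use of strand were not given in the sources used here, so overlapping and antisense genes are uncertain. RPKM is printed as a level, and all tests used counts.

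The longest transcript of each of 23992 symbols was kept. In R 4.3.3, edgeR 4.0.16 was run with TMM, filterByExpr (minimum count 10), and the quasi-likelihood test on 47 libraries with 1 mean for each of the 16 groups, without *Stat5a* KI replicate 3 at 4 hr (1028503 reads). A call required 0.05 or less after Benjamini-Hochberg adjustment over 15562 genes and a difference of 2-fold or more. The script was tested on simulated data. Summed levels are CPM with TMM, and a count of 3, taken as the floor, was 0.0498 to 0.105 CPM in the 12 libraries. The floor covers counting error only. No 2 libraries of a group agreed within sampling noise (chi-square of 8.03 to 53.3 per gene). The alternatives were other size factors, DESeq2 1.42.0, limma 3.58.1 on log2(RPKM + 1), no filter, other sets of libraries, the replicate block, each library left out, the most-read transcript, and other thresholds.

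Some genes that the rule names are not reported here. Genes named are, by rule, the 12 largest rises and falls among called, non-overlapping genes of at least 1 RPKM, those of them called in the KI minus WT test, up to 5 members of each list, and the leading WT genes. The members and lists were chosen with earlier results of these data known. Chosen outside the rule, after their values were seen, were *Atn1*, *Bbc3*, *Rgcc*, *Cd4*, *Cd44*, *Cd8b1*, *Cd3e*, *Ccl5*, *Ccr7*, *Il2ra*, *Il2rb*, *Il7r*, *Socs2*, *Tbx21*, *Prf1*, *Mki67*, *Hbb-bs*, *Hspa8*, the Klra and chaperone families, and the genes of the closing observations. Sequences came from RefSeq (GRCm38.p6) and the designed guides and donors, and 116 of 167 named genes matched a promoter.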

Additional observations from a re-analysis of the deposited data

Results flagged for a closer look

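In a direct test, the difference between the lines in KI cells departed from that in WT cells for 12 genes, by log2 differences of which these are given. Those above 0 included *Car2* (1.55), *Nrn1* (1.47), *Hemgn*, an erythroid nuclear factor gene (3.14), *Sptb*, the erythroid beta spectrin gene (2.27), *Cdkn2a*, encoding p16 and p19ARF (2.50), *Ncs1*, a neuronal calcium sensor gene (1.43), and *Btnl10*, a butyrophilin-like gene (11.51). Those below 0 were *Klra12* (−2.14), *Klra13-ps* (−1.95), *Klra23* (−1.96), and *Drc1*, a gene of motile cilia (−2.65). All 12 stayed called without *Stat5a* WT replicate 3 and without *Stat5a* KI replicate 1. Of the 12, 6 stayed called without *Stat5a* KI replicate 2, without *Stat5a* KI replicate 3, without *Stat5b* KI replicate 1, and with all 48 libraries, 7 without *Stat5b* WT replicate 1, and 8 without *Stat5b* KI replicate 3. *Car2*, *Nrn1*, *Hemgn*, *Klra12*, *Klra13-ps*, and *Klra23* were called in each of the 12 fits that left out 1 library, while *Btnl10* and *Ncs1* were called in 3 of them, *Cdkn2a* in 4, *Drc1* in 6, and *Sptb* in 8. With all 48 libraries, *Nrn1* was not called. With the replicate block, *Car2*, *Hemgn*, and *Nrn1* were not called, although the replicate numbers did not pair the libraries (below).

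*Hemgn* was at 0.382, 0.228, and 0.158 RPKM in *Stat5a* KI cells and at 2.57, 1.01, and 1.77 RPKM in *Stat5b* KI cells, and at 0.180 to 0.393 RPKM in WT cells. *Cdkn2a* was at 0.185, 0.195, and 0.109 RPKM against 0.687, 0.573, and 0.742 RPKM, and at 0.0595 to 0.331 RPKM in WT cells. For *Hemgn* and *Cdkn2a*, all *Stat5b* KI libraries were above the other 9. *Drc1* was at 0.400, 0.509, and 0.502 RPKM against 0.0483, 0.159, and 0.0782 RPKM, and at 0.749 to 1.75 RPKM in WT cells, so it was lowest in *Stat5b* KI cells. *Btnl10* had no read in any *Stat5a* KI or *Stat5b* WT library, so its fitted difference depends on the prior count and is no bound. With 36, 9, and 18 reads in *Stat5b* KI cells, it was at least 6.04-fold higher there than the floor of 3 counts for each *Stat5a* KI library. It was 1 of 9 called genes with no read in any *Stat5a* KI library, and with these at their bound the median log2 fold change of the 281 higher genes was 1.66 in place of 1.77.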

How the results depend on the processing

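The KI call count of 340 (2.18% of genes tested) became 51 (0.465%) with limma on log2(RPKM + 1), 93 higher and 32 lower (0.811%) with all 48 libraries, 93 (0.88%) over genes of at least 1 RPKM, 679 (4.36%) at a fold of 1.5, and 1794 (11.5%) with no fold threshold. With only the 12 unstimulated libraries in the filter, the scaling, and the fit, 321 of 14447 genes tested were called (2.22%). Of these, 260 were among the 340. With 1 library left out, the KI count ranged from 179 (1.15%) to 479 (3.09%). The WT count of 51 (0.328%) became 83 (0.533%, 21 higher and 62 lower) with the DESeq2 Wald test, 3 (0.0273%) with limma, 2 (0.0138%) with only the 12 unstimulated libraries, 6 (0.039%) with all 48, 31 (0.293%) over genes of at least 1 RPKM, 62 higher and 74 lower (0.874%) at a fold of 1.5, and 373 (2.4%) with no fold threshold. With 1 library left out, it ranged from 4 (0.0257%) to 242 (1.56%). The count of 12 for KI against WT differences (0.0771%) became 40 (0.257%) with the Wald test, 22 (0.201%) with limma, 6 (0.039%) with all 48 libraries, 5 (0.0473%) over genes of at least 1 RPKM, 19 (0.122%) at a fold of 1.5, and 24 (0.154%) with no fold threshold, and ranged from 6 (0.0386%) to 105 (0.677%) with 1 library left out. The replicate numbers did not pair the libraries (correlations of same-numbered deviations of 0.00164 to 0.0700 between the KI groups). With the replicate block, the counts were 265 (1.83%), 0 (edgeR, with 2613 genes at an unadjusted p under 0.05), and 4 (0.0277%, all below 0). The causes of these shifts were not tested, apart from the thresholds and filters themselves. None of 73 called genes followed through the KI alternatives that gave a value changed direction, and 24 stayed called under every one. Depth limits some calls, such as that of *Btnl10*, with 36, 9, and 18 reads in *Stat5b* KI cells and none in *Stat5a* KI cells.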

Other observations

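Further erythroid genes outside the marker list, chosen after their values were seen, were higher in *Stat5b* KI cells. They include the membrane skeleton genes *Ank1* (2.52 ± 0.42, adjusted p = 0.000209) and *Epb4.2* (3.13 ± 0.55, adjusted p = 0.000353), the blood group genes *Rhd* (3.82 ± 0.75, adjusted p = 0.00125) and *Kel* (4.05 ± 0.84, adjusted p = 0.00186), the water channel gene *Aqp1* (3.15 ± 0.63, adjusted p = 0.00154), and the transcription factor genes *Gata1* (1.37 ± 0.33, adjusted p = 0.00671) and *Tal1* (2.07 ± 0.52, adjusted p = 0.00851), all log2 fold changes with SE. In WT cells, none of these was called, and all but *Gata1* and *Tal1* stayed called in every fit that left out 1 KI library.

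Single genes known from activated myeloid cells, chosen in the same way, are given beside the macrophage and monocyte list, of which 1 of 22 was called. *Il1b*, the interleukin-1 beta gene, was at 12.7, 11.1, and 12.6 RPKM in *Stat5a* KI cells and at 22.6, 29.5, and 27.9 RPKM in *Stat5b* KI cells (1.03 ± 0.23, adjusted p = 0.00284), and at 5.26 to 11.1 RPKM in WT cells. The neutrophil chemokine gene *Cxcl2* rose by 1.54 ± 0.36 (adjusted p = 0.00441), *Clec7a*, encoding dectin-1, by 1.46 ± 0.44 (adjusted p = 0.0251), and the decoy receptor gene *Il1r2* by 1.01 ± 0.23 (adjusted p = 0.00441). Of these, only *Cxcl2* remained called in every fit that left out 1 KI library. *Art2b*, which encodes an ADP-ribosyltransferase of the T cell surface, rose by 1.04 ± 0.15 (adjusted p = 2.5e-05).

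*Zfhx2*, a homeobox gene and one of the leading genes of the WT line difference, was at 2.89, 3.53, and 3.76 RPKM in *Stat5a* WT cells and at 5.41, 5.40, and 5.31 RPKM in *Stat5b* WT cells (0.61 ± 0.10, adjusted p = 0.00124), and at 2.73 to 3.24 RPKM in the KI libraries of both lines.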
